A study of Sus scrofa with 3 samples.

Results

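The CYP4 genes code for cytochrome P450 enzymes that hydroxylate fatty acids. The members were chosen by symbol, as CYP4A21, CYP4A24, CYP4F2, CYP4B1 and CYP4V2. The rule used no measured value, but the choice was made with earlier results of these data known. Of these 5 genes, 4 had a row among the 34570 genes of the count table, and CYP4B1 was not analysed here. One further row with a CYP4 symbol, CYP4F55, is described beside them. Kidney RNA came from Chinese Wuzhishan pigs, 6 to 7 months old, all fed a diet rich in fat and cholesterol, so that no group without this diet is included. The groups were castrated males with testosterone replacement (CMT), castrated males (CM) and intact males (IM). Equal amounts of RNA from the 3 pigs of a group were pooled and sequenced as 1 library, which gives 3 libraries from 9 pigs, and no group is replicated. Testosterone dose, interval after castration and circulating hormone were not analysed here.

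CYP4 enzymes put a hydroxyl group on the last (omega) carbon of a fatty acid. Alcohol and aldehyde dehydrogenases then oxidise the product to a dicarboxylic acid, which peroxisomes shorten by beta-oxidation. In the kidney, CYP4A enzymes are known from the proximal tubule, and CYP4A and CYP4F enzymes turn arachidonic acid into a hydroxylated product that acts on renal vessels and on salt transport. In rodents the Cyp4a genes are standard targets of the fatty acid receptor PPAR-alpha, and in mice one of them, Cyp4a12a, depends on androgen in the kidney.

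The deposited counts summed to 13601475 in CMT, 18503537 in CM and 16459771 in IM. Levels are given as raw counts and as CPM, counts scaled to library size with the trimmed mean of M-values (TMM). The 15472 genes with a mean of at least 1 CPM over the 3 libraries were compared, and all 4 members with a row passed this minimum. A fold is a ratio of scaled counts. A call, higher or lower, needs the whole exact 95% interval, printed in parentheses after a fold, to lie past 2-fold. The interval covers counting error only. No spread between pigs can be estimated, no test of castration or testosterone is possible, and no p-value is given. In RNA of whole kidney, fewer cells of a type and less RNA per cell cannot be told apart.

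The CYP4A pair was low in the castrated pool and high in the other 2 pools. CYP4A24, which in pigs codes for a fatty acid hydroxylase, had 26390 counts in CMT, 6767 in CM and 27720 in IM. On the scaled level this was 1994 CPM in CMT, 358 in CM and 1674 in IM. CYP4A24 was 4.68-fold lower in CM than in IM (4.55 to 4.80) and 5.57-fold higher in CMT than in CM (5.42 to 5.72). CYP4A21, known in pig liver as the enzyme that hydroxylates a bile acid on its way to hyocholic acid, had 14528 counts in CMT, 3628 in CM and 15287 in IM. Its scaled level was 1098 CPM in CMT, 192 in CM and 923 in IM. CYP4A21 was 4.81-fold lower in CM than in IM (4.64 to 4.99) and 5.72-fold higher in CMT than in CM (5.51 to 5.93). For both genes the counting intervals of the 3 levels were far apart, with CM below the others. Together the 2 rows held 0.301% of all counts in CMT, 0.0562% in CM and 0.261% in IM.

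**Figure D1:**
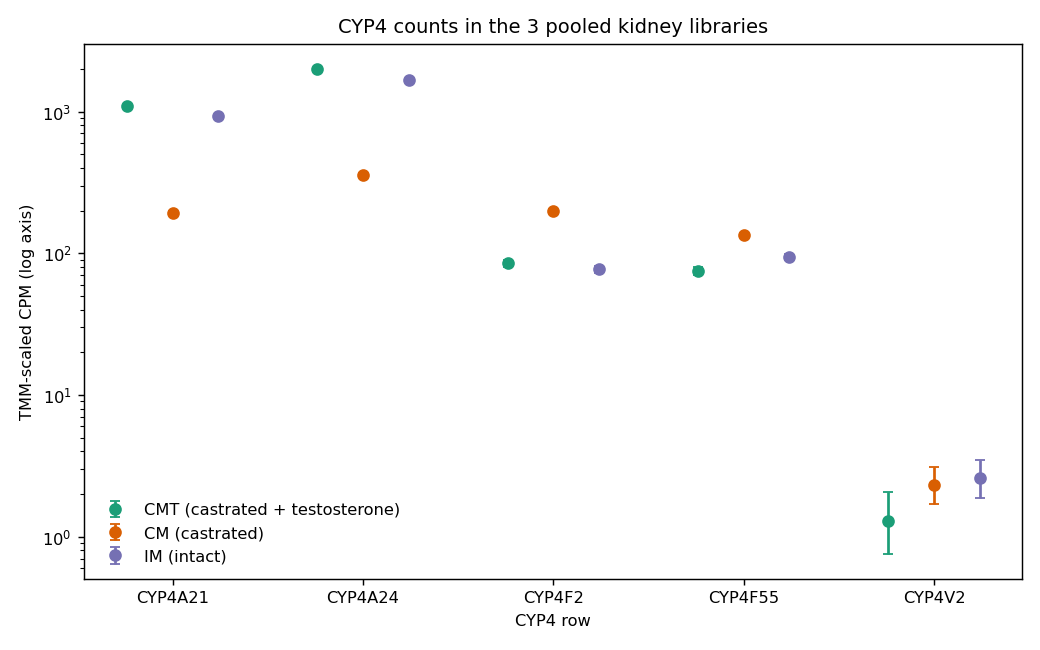
TMM-scaled CPM (log axis) of the 5 rows with a CYP4 symbol in the CMT, CM and IM libraries, 1 pooled library per group; bars are exact 95% Poisson intervals of the count and are smaller than most points. CYP4A21 and CYP4A24 are lowest in CM, CYP4F2 and CYP4F55 are highest in CM, and CYP4V2 lies between 1.28 and 2.60 CPM.

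The levels under testosterone lay slightly above those of intact pigs. In CMT the scaled level was 1.19 times that in IM for CYP4A24 (1.17 to 1.21) and also 1.19 times for CYP4A21 (1.16 to 1.22). Both intervals lie above 1 and far from 2-fold, so neither row was called. The CMT and IM pools therefore differed far less from each other in CYP4A counts than either did from CM.

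The CYP4A copies kept nearly the same proportion of reads in each pool. CYP4A21 had 0.551 counts for each count of CYP4A24 in CMT (0.539 to 0.562), 0.536 in CM (0.515 to 0.558) and 0.551 in IM (0.541 to 0.562). The 3 intervals overlap. These copies are similar in sequence and how the counting assigned their common reads is unknown, so that sharing of reads was not tested. With both rows summed, CYP4A counts were 5.62-fold higher in CMT than in CM (5.50 to 5.74), and the sum in CM was 0.212 times that in IM (0.207 to 0.216). RefSeq also lists CYP4A25 as a synonym of CYP4A24, and a further pig CYP4A copy cannot be told apart from that row.

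The pattern extended to rows without a gene name that stand beside this pair in the genome. In the RefSeq gene order of assembly Sscrofa11.1, CYP4A24 and CYP4A21 lie between PDZK1IP1 and EFCAB14 with 12 genes that carry only a number, and 5 of those had a row. The build behind the counts is unknown, so only this order was used. Of these 5 rows, 4 were called lower in CM than in IM, 4 were called higher in CMT than in CM, and 0 were called in CMT against IM. Over all genes compared, 1.52% were lower in CM than in IM and 1.84% were higher in CMT than in CM. The 5 rows were examined after their counts were seen, so they are no independent support for the CYP4A result. LOC100627093, on the PDZK1IP1 side of CYP4A24, had 19943 counts in CMT, 2122 in CM and 16696 in IM. It was 8.98-fold lower in CM than in IM (8.59 to 9.40) and 13.4-fold higher in CMT than in CM (12.8 to 14.0), folds above those of either named copy. LOC100627844, between CYP4A24 and CYP4A21, had 34250 counts in CMT, 5753 in CM and 25786 in IM. RefSeq lists it as a pseudogene, while the count table types it as mRNA. It was 5.12-fold lower in CM than in IM (4.97 to 5.27) and 8.50-fold higher in CMT than in CM (8.27 to 8.75).

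Among rows with counts, the called ones stood next to each other in this order. The other 2 called rows were LOC100627285 and LOC100737897. In that order, they were 7.47-fold and 4.70-fold lower in CM than in IM and 5.15-fold and 5.26-fold higher in CMT than in CM. RefSeq lists LOC100627285 as protein-coding, while the count table types it as noncoding RNA. Its level in CMT was 0.690 times that in IM (0.666 to 0.715), and that of LOC100737897 was 1.12 times (1.09 to 1.15). The uncalled numbered row lies beyond CYP4A21 and had 24 counts in CMT, 62 in CM and 30 in IM. PDZK1IP1, which codes for a small membrane protein of the proximal tubule, had 2334 counts in CMT, 4339 in CM and 2129 in IM. Its level in CM was 1.79 times that in IM (1.69 to 1.88), the direction opposite to CYP4A. EFCAB14, at the other end, had 1269 counts in CMT, 1250 in CM and 1534 in IM and was 0.714 times as high in CM as in IM (0.662 to 0.770). Neither bordering gene was called in any comparison. What the numbered rows code for is not given in the tables used here, so whether one of them stands for CYP4B1 cannot be told. Likewise, sharing of reads among the rows of this stretch was not tested.

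**Figure D2:**
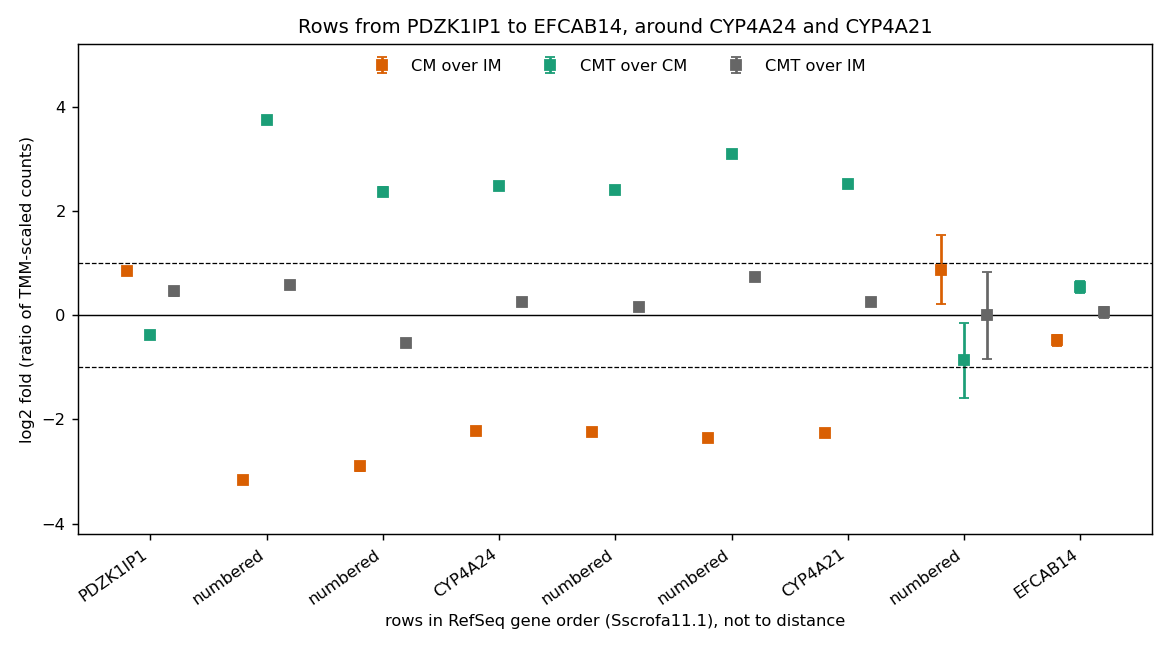
Log2 folds of the rows with counts from PDZK1IP1 to EFCAB14, in RefSeq order and evenly spaced; squares are ratios of TMM-scaled counts, bars exact 95% counting intervals, dashed lines 2-fold. The 6 rows from LOC100627093 to CYP4A21 lie below the lower line for CM over IM and above the upper line for CMT over CM, and the rows at either end lie within both lines.

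The CYP4F rows went the other way. CYP4F2, which in humans codes for a hydroxylase of leukotriene B4, arachidonic acid and the side chains of vitamins E and K, had 1127 counts in CMT, 3740 in CM and 1279 in IM. Its scaled level was 85.1 CPM in CMT, 198 in CM and 77.2 in IM. CYP4F2 was 2.56-fold higher in CM than in IM (2.40 to 2.73) and 2.32-fold lower in CMT than in CM (2.17 to 2.49). In CMT it stood at 1.10 times the IM level (1.02 to 1.20) and was not called.

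CYP4F55 had the same order of CM above the others, with smaller folds. It had 990 counts in CMT, 2540 in CM and 1557 in IM, or 74.8 CPM in CMT, 134 in CM and 94.0 in IM. Its level in CM was 1.43 times that in IM (1.34 to 1.52), and its level in CMT was 0.557 times that in CM (0.517 to 0.599) and 0.795 times that in IM (0.734 to 0.862). It was called in no comparison. Unlike the CYP4A pair, the CYP4F rows did not keep one proportion: CYP4F2 had 1.14 counts for each count of CYP4F55 in CMT (1.04 to 1.24), 1.47 in CM (1.40 to 1.55) and 0.821 in IM (0.762 to 0.885). These 3 intervals do not overlap. How any reads common to these rows and their neighbours were assigned is unknown here too, and sharing of reads was not tested. In the RefSeq order, 3 of the 16 numbered genes with a row around these genes reached 1 CPM, and 0 of them were called in any comparison.

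CYP4V2 had few counts and was called in no comparison. This gene codes for a hydroxylase of medium-chain fatty acids and is mutated in human Bietti crystalline dystrophy, an eye disease. It had 17 counts in CMT, 44 in CM and 43 in IM, or 1.28 CPM in CMT, 2.33 in CM and 2.60 in IM. The fold of CM over IM was 0.896 (0.575 to 1.40), that of CMT over CM 0.552 (0.296 to 0.985), and that of CMT over IM 0.495 (0.264 to 0.885). The last 2 intervals lie below 1 but include 2-fold, so no call was made. Its neighbour FAM149A had 2237 counts in CMT, 3871 in CM and 3497 in IM and was not called.

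**Figure D3:**
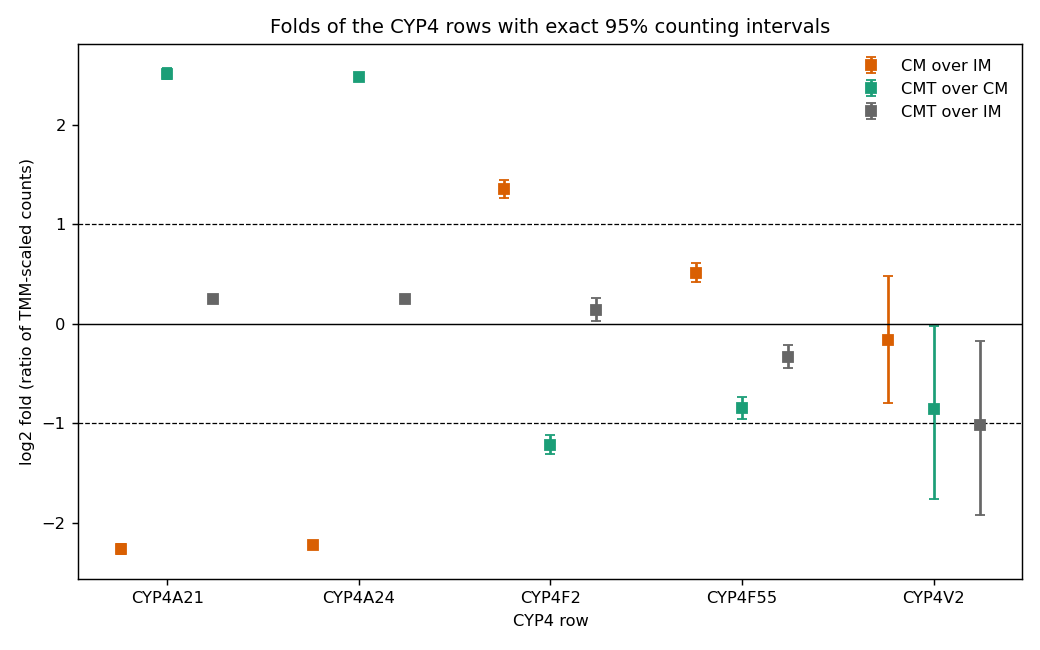
Log2 folds (ratios of TMM-scaled counts) of the 5 CYP4 rows in each comparison; bars are exact 95% counting intervals and dashed lines mark 2-fold. CYP4A21 and CYP4A24 lie at -2.27 and -2.23 for CM over IM and at 2.52 and 2.48 for CMT over CM, and CYP4F2 at 1.36 and -1.22. For CMT over IM the folds of these 3 rows lie between 0.14 and 0.25.

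The called members stood beside a small called share of the whole table. Of the 4 members compared, 2 were lower and 1 was higher in CM than in IM, where 1.52% of all genes compared were lower and 1.20% higher. In CMT against CM, 2 were higher and 1 was lower, where 1.84% of all genes compared were higher and 1.11% lower. Those 2 comparisons share the CM library, so that a low or high CM level enters both. The 2 CYP4A rows may share reads and so may not be separate calls. With them summed, 1 of 3 members was lower and 1 higher in CM than in IM. In CMT against CM that sum likewise left 1 higher and 1 lower of 3. In CMT against IM 0 members were called, beside 0.905% of all genes compared that were higher and 0.595% that were lower. The called share differed with level and with direction. Of the 254 genes with a mean of at least 500 CPM, which include both CYP4A rows, CM against IM gave 0.787% higher and 6.69% lower. In CMT against CM 9.84% of these genes were higher and 0.787% lower, and in CMT against IM 1.18% were higher and 0 genes were lower. Of the 1719 genes with a mean of at least 100 CPM, which include CYP4F2, CM against IM gave 0.814% higher and 3.03% lower, and CMT against CM gave 3.90% higher and 0.640% lower. The CYP4A directions were therefore the commoner ones among well-counted genes, and the CYP4F2 directions the rarer ones. CYP4A24 was 1 of 6 called lower in CM than in IM among the 91 genes with a mean of at least 1000 CPM. The others included LOC100627844 of the CYP4A stretch, AADAT, the protease gene CTSB and CYP2C33. At 500 CPM the genes called lower included both CYP4A rows and, from the same stretch, LOC100627093, LOC100627844 and LOC100737897. That share therefore holds the CYP4A rows themselves and neighbours that may share their reads.

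**Figure D4:**
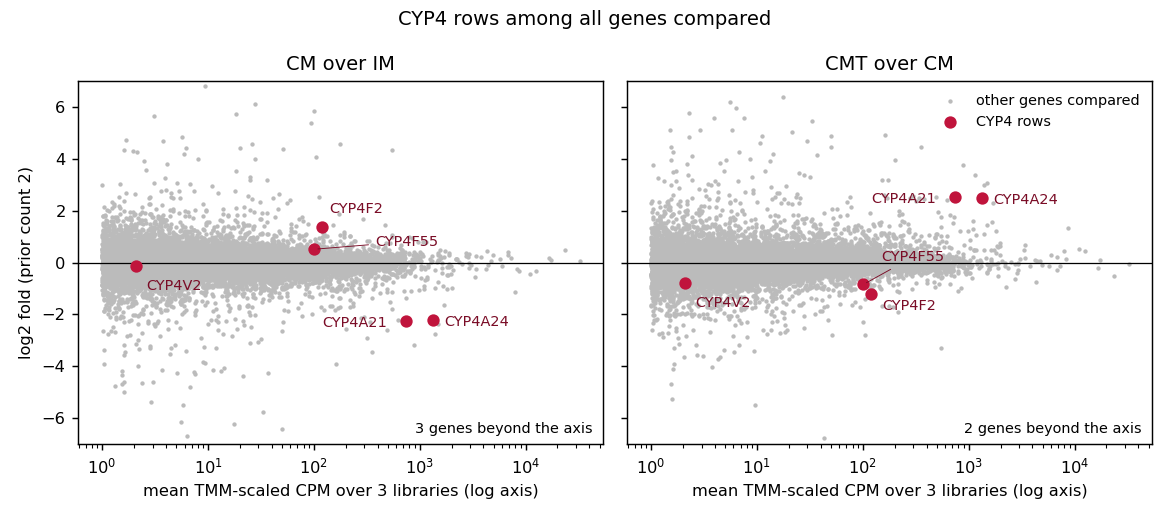
Log2 fold (prior count 2) against mean TMM-scaled CPM (log axis) of the 15472 genes compared, for CM over IM and CMT over CM; red points are the 5 CYP4 rows. CYP4A21 and CYP4A24 lie at the right, below most genes of their level in CM over IM and above most in CMT over CM, CYP4F2 lies on the opposite side of 0 from them in each panel, and CYP4V2 lies at the left among genes of low counts.

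Among other P450 rows, calls also went both ways. Among the 20 compared rows with another CYP symbol, CM against IM gave 3 higher and 3 lower calls, and CMT against CM gave 6 higher and 3 lower calls. For these and for the lists below, the shares over all genes compared are the background. In CM against IM they were 1.20% higher and 1.52% lower, and in CMT against CM 1.84% higher and 1.11% lower. These shares differ with level, as given above. The genes nearest to the CYP4A pair in pattern included CYP2C36 and CYP2C42, of a subfamily that epoxidises or hydroxylates fatty acids and drugs. Likeness was the distance between the log2 folds of CM over IM and CMT over CM, over 3 libraries and among named genes with a mean of at least 10 CPM. CYP2C36 had 5614 counts in CMT, 1420 in CM and 5477 in IM. CYP2C42 had 6310 counts in CMT, 1507 in CM and 5720 in IM. These CYP2C genes also have close copies that may share reads. The other near genes were GPC3, a cell-surface proteoglycan gene, with 6495 counts in CMT, 1664 in CM and 7227 in IM, and GABBR2, a GABA receptor subunit gene, with 352 in CMT, 91 in CM and 369 in IM. Their distances from the CYP4A rows lay between 0.06 and 0.16 on the log2 scale.

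Other genes lay nearest to CYP4F2. They were MYOM2, AKR1E2, SHMT2, TSPAN4 and SREBF1, the gene of a regulator of fatty acid synthesis. SREBF1 had 411 counts in CMT, 1455 in CM and 581 in IM, and MYOM2 had 129 in CMT, 443 in CM and 150 in IM. Nearest to CYP4F55 was ALDH5A1, followed by SLC51B, a subunit gene of a bile acid and steroid transporter, with 1124 counts in CMT, 2937 in CM and 1795 in IM. For CYP4V2 the nearest gene was RNF115, which had 110 counts in CMT, 272 in CM and 269 in IM.

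Of the genes whose proteins pass electrons to P450 enzymes or bind them, POR alone was called. POR, the NADPH-P450 reductase gene, had 2105 counts in CMT, 1262 in CM and 1780 in IM. It was 2.38-fold higher in CMT than in CM (2.22 to 2.56) and was called there, while in CM it stood at 0.621 times the IM level (0.577 to 0.668). CYB5B, a cytochrome b5 gene, had 903 counts in CMT, 756 in CM and 1250 in IM and was called in no comparison. The 6 compared genes of this list had a median log2 fold of -0.49 in CM over IM and of 0.53 in CMT over CM, beside -0.0064 and -0.0043 over all genes compared. Of these 6 genes, 0 were called in CM against IM and 1 was called in CMT against CM. The intervals of PGRMC2, which codes for a heme-binding membrane protein, include 1 in both comparisons (0.842 to 1.04 for CM over IM, 0.955 to 1.20 for CMT over CM).

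Of the enzymes that act after omega-hydroxylation, a few passed the rule. ADH1C, an alcohol dehydrogenase gene, had 14074 counts in CMT, 5984 in CM and 13634 in IM, and was 2.60-fold lower in CM than in IM and 3.36-fold higher in CMT than in CM (3.26 to 3.46). ALDH3A1, an aldehyde dehydrogenase gene, went the other way with 300 counts in CMT, 1112 in CM and 256 in IM. ALDH3A2, the fatty aldehyde dehydrogenase gene, was not called, with 7089 counts in CMT, 7131 in CM and 9072 in IM. Of 10 compared genes of these alcohol and aldehyde steps, CM against IM gave 1 higher and 1 lower call, and CMT against CM gave 2 higher calls and 1 lower call. The median log2 fold was -0.29 in CM over IM and 0.14 in CMT over CM.

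In peroxisomal beta-oxidation, CM against IM gave 3 lower and 0 higher calls over 23 compared genes, and CMT against CM gave 4 higher and 0 lower calls. The shares over all genes compared were 1.52% lower in CM than in IM and 1.84% higher in CMT than in CM. SCP2, the sterol carrier and thiolase gene, had 3947 counts in CMT, 1586 in CM and 4594 in IM, and was 3.31-fold lower in CM than in IM and 3.55-fold higher in CMT than in CM (3.35 to 3.77). HSD17B4, which codes for the bifunctional enzyme of this route, had 9458 counts in CMT, 3978 in CM and 11993 in IM. The fatty acid transporter and acyl-CoA synthetase gene SLC27A2 was the other one called in both comparisons. ABCD3, which codes for a transporter of fatty acids into peroxisomes, was called only in CMT against CM, at 2.31-fold (2.14 to 2.49). The list's median log2 fold was -0.01 in CM over IM and 0.10 in CMT over CM, so most of its genes stayed near 0.

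Targets of PPAR-alpha lay mostly above 0 in CMT over CM. Of 20 compared targets, 4 were called higher and 0 lower, 19 had a log2 fold above 0 and the median was 0.62, beside -0.0043 over all genes compared. PDK4, a brake on pyruvate oxidation, had 4952 counts in CMT, 770 in CM and 1753 in IM. ANGPTL4, a secreted inhibitor of lipoprotein lipase, had 4467 counts in CMT, 697 in CM and 1275 in IM. Unlike the CYP4A pair, both were also called higher in CMT than in IM, PDK4 at 3.53-fold (3.35 to 3.73) and ANGPTL4 at 4.38-fold (4.12 to 4.67). In CM against IM, 2 of the 20 were lower, PDK4 and FABP3, 0 were higher, and the median log2 fold was -0.25.

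Of the PPAR and RXR receptor genes compared, PPARA alone was called, in CMT against CM. It had 76 counts in CMT, 343 in CM and 234 in IM and was 3.16-fold lower in CMT than in CM (2.46 to 4.11). PPARD had 481 counts in CMT, 768 in CM and 638 in IM, and PPARG had 29 in CMT, 69 in CM and 34 in IM; neither was called. CREB3L3, a transcription factor gene of lipid metabolism on the same list, had 667 counts in CMT, 411 in CM and 35 in IM and was called higher in all 3 comparisons.

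**Figure D5:**
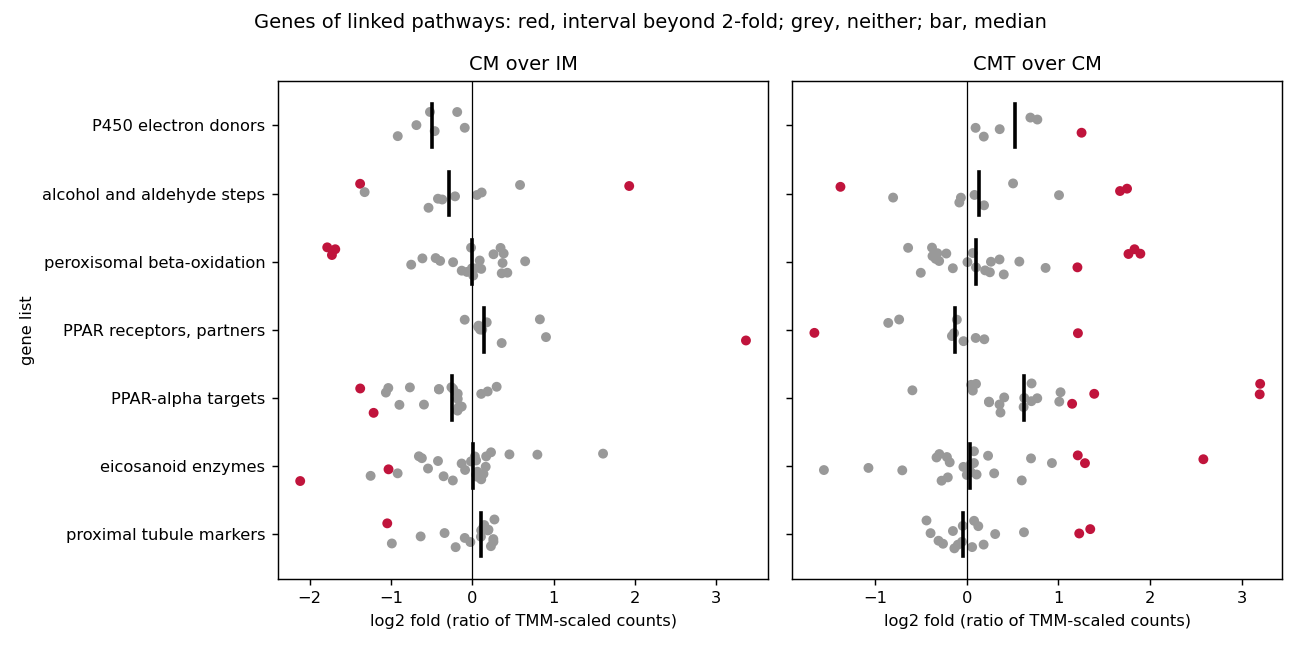
Log2 folds (ratios of TMM-scaled counts) of the compared genes of 7 lists for CM over IM and CMT over CM; each point is a gene, red where its exact 95% interval lies beyond 2-fold, and the black bar is the list's median (prior count 2). The PPAR-alpha targets have a median of -0.25 in CM over IM and 0.62 in CMT over CM, and the proximal tubule markers one of 0.11 and -0.04.

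Enzymes and receptors of eicosanoids gave calls only in P450 genes. Of 26 compared enzymes, 2 were lower in CM than in IM and 3 were higher in CMT than in CM, all of them CYP2C genes. CYP2C33 had 30818 counts in CMT, 19013 in CM and 34008 in IM, and CYP2C49 had 20197 in CMT, 11801 in CM and 19531 in IM. EPHX2, the soluble epoxide hydrolase gene, had 4920 counts in CMT, 8824 in CM and 7484 in IM and was not called. GPR75, which codes for a proposed receptor of the CYP4 product of arachidonic acid, had 0 counts in CMT, 3 in CM and 3 in IM. It fell below the minimum mean of 1 CPM and was not compared. Of 6 compared eicosanoid receptors and 10 genes of vitamin K and vitamin E handling, 0 were called in any comparison. In bile acid synthesis and handling, 11 genes were compared, and CM against IM gave 1 higher and 0 lower calls. CMT against CM gave 2 higher and 1 lower, and CMT against IM gave 1 higher and 0 lower. CYP27A1, the sterol 27-hydroxylase gene, had 222 counts in CMT, 980 in CM and 94 in IM. CYP27A1 was called higher in CM than in IM, lower in CMT than in CM and higher in CMT than in IM. The 2 genes called higher in CMT than in CM were NR1H4 and NR0B2. NR1H4, the bile acid receptor gene FXR, had 921 counts in CMT, 536 in CM and 957 in IM and was 2.45-fold higher in CMT than in CM (2.20 to 2.73).

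Kidney markers were present in each pool. SLC34A1, the phosphate transporter of the proximal tubule, had 19917 counts in CMT, 29466 in CM and 23931 in IM, and LRP2, the endocytic receptor megalin, had 1745 in CMT, 3083 in CM and 2510 in IM. Of 17 compared proximal tubule markers, 1 was lower in CM than in IM, GGT1, and 0 were higher, with a median log2 fold of 0.11. In CMT against CM, 2 of the 17 were higher, PCK1 and GGT1, and 0 were lower, with a median log2 fold of -0.04. GGT1, which codes for a brush border peptidase, had 17114 counts in CMT, 10442 in CM and 18879 in IM, the order of the CYP4A pair. The part of these markers in the CYP4A result was not tested. Their summed level was 37610 CPM in CMT, 29196 in CM and 30279 in IM, with PCK1 as the largest part. Of 9 markers of the earlier proximal segments 0 were called, with a median log2 fold of -0.43 in CM over IM and 0.19 in CMT over CM. Of 9 markers of the straight last segment, 3 were higher in CM than in IM (SLC22A7, SLC5A8 and SLC5A10) and 1 was lower, GLUL, with 10194 counts in CMT, 3816 in CM and 9668 in IM. In CMT against CM, 1 of these 9 was higher, GLUL, and 2 were lower, SLC5A8 and SLC22A7. In CMT against IM, SLC5A8 alone was called, as higher. The median log2 fold of the markers of this last segment was 0.46 in CM over IM and -0.37 in CMT over CM.

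Markers of other kidney cells gave few calls. Of the podocyte, endothelial and stromal markers, and of the few adrenal and urothelial ones compared, 0 were called in any comparison. Of 7 thick ascending limb markers, TMEM207 alone was called, as lower in CM than in IM. Of 12 markers of the distal tubule and collecting duct, 1 was called, SLC26A4, which codes for the anion exchanger pendrin. It had 396 counts in CMT, 197 in CM and 700 in IM, and was called lower in CM than in IM and higher in CMT than in CM, as the CYP4A pair was. Of 13 immune cell markers, S100A12 was called higher in CMT than in CM and than in IM, and CD79A lower in CMT than in CM. Of 6 adipocyte markers, PLIN4 was called higher in CM than in IM and lower in CMT than in CM, and LIPE higher in CMT than in CM.

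A few liver genes were called in the CYP4A directions. Of 10 compared hepatocyte markers, CM against IM gave 4 lower calls (ALB, AFP, PLG and TF) and 1 higher call, TTR. CMT against CM gave 3 higher calls (ALB, AFP and TTR) and 0 lower calls, so that ALB and AFP alone were called as the CYP4A pair was in both comparisons. In CMT against IM, TTR was called higher, and ALB and PLG were called lower. The whole list summed to 937 CPM in CMT, 579 in CM and 1058 in IM. ALB, the albumin gene, had 404 counts in CMT, 24 in CM and 1952 in IM, and was 3.86-fold lower in CMT than in IM. Of the 16 hepatocyte markers with a row, 10 reached a mean of 1 CPM and make up nearly all of that sum. Those below this minimum included CPS1, at 0 counts in all 3 pools, and CYP7A1, at 3 counts in CMT, 1 in CM and 1 in IM. Also below it, APOB had 5 counts in CMT, 0 in CM and 1 in IM, and SERPINA1 had 0 in CMT, 1 in CM and 3 in IM. The part of these transcripts in the CYP4A result was not tested.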

How the data were processed

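Per the labels' protocols, TRIzol-extracted RNA was pooled within a group and made into a library with an Ion Torrent total RNA kit, while the design text names an Illumina sequencer and speaks of triplicates; this was not settled here. The authors deposited 1 table of raw counts per gene. FastQC is named in the submitters' processing notes; no source used here states the aligner, counting program, strand setting, build or annotation. How reads of near-identical copies were assigned is therefore unknown. No coordinates or sequences are given, and the promoter motifs planned at the start were not searched.

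TMM factors came from edgeR 4.0.16 in R 4.3.3, whose test needs replicates and could not be fitted. Folds are ratios of scaled counts with Clopper-Pearson intervals of the share of counts (scipy 1.17.1). List medians use log2 folds with a prior count of 2. Of 19902 numbered genes, 1556 received a symbol from RefSeq. Reads are not independent molecules. The rule was tested on simulated counts of 15472 genes without spread between pigs; for CM against IM it recovered 45 of 50 genes changed 4-fold. The members and lists were chosen with earlier results of these data known, and the neighbouring rows were examined after their counts were seen. Named genes were the CYP4 rows, 10 preset genes (RXRA was not analysed here), up to 3 called genes per list and direction, and the 5 nearest in pattern; some are given by counts only, some are not reported here, and others were named after their values were seen.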

Additional observations from a re-analysis of the deposited data

How the results depend on the processing

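Under scaling by total counts, DESeq2 size factors, totals without ribosomal RNA and mitochondrial genes, and thinning, 47 of 48 folds of the members kept their direction and their call. Other filters, other thresholds and a 99% interval leave a fold as it is and can change only its call, which they did in 2 of 57. CYP4F2 was no longer called at a 3-fold threshold in CM against IM or CMT against CM (log2 folds of 1.36 and -1.22), as the threshold itself requires. CYP4V2 turned to a log2 fold of 0.10 in CM over IM after thinning to the smallest library, where its counts are few, and it fell out of the comparison at a minimum of 5 CPM. The log2 fold of CM over IM ranged from -2.27 to -2.24 for CYP4A21 and from -2.23 to -2.20 for CYP4A24, and that of CYP4F2 from 1.32 to 1.38.

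The number of genes called over the whole table was 420 for CM against IM, 456 for CMT against CM and 232 for CMT against IM. With a minimum of 5 CPM it was 271, 300 and 132, with a 1.5-fold threshold 963, 974 and 579, and with a 3-fold threshold 199, 196 and 90, in that order of comparisons. No paired analysis was possible because each group has 1 library. Depth limits CYP4V2 and GPR75; for the others the missing replicates are the limit, and leaving out a replicate could not be done.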
